A study of Danio rerio with 12 samples.

Results

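Retinoic acid is made, bound, sensed and destroyed by a small set of proteins, and the transcripts of 13 zebrafish genes for these steps were followed in sorted adult brain cells. The 13 are the retinol dehydrogenases rdh10a and rdh10b, the retinal dehydrogenases aldh1a2 and aldh1a3, the hydroxylases cyp26a1 and cyp26b1, the binding proteins crabp1a, crabp1b, crabp2a and crabp2b, and the receptors raraa, rarga and rargb. They were found by symbol among the 31953 genes of the count table. The table's names drop the paralog letter for rdh10, crabp1, crabp2 and rarg, so both copies of each were taken, and 10 listed symbols gave 13 genes. The list itself was chosen with results of these data in view, and which measured values it was chosen on is not recorded. Levels and differences of the 13 genes are therefore given as a description, without p-values.

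The libraries came from brains of 6-month-old Tg(her4.1:EGFP) fish, dissected 48 h after a peptide was injected. AB42, the amyloid-β42 peptide that the protocol writes as TR-Aβ42, was compared with the control peptide CPP, and dissociated cells were sorted by GFP. This gave 4 groups of 3 libraries: GFP-positive cells after AB42, GFP-positive cells after CPP, GFP-negative cells after AB42 and GFP-negative cells after CPP. All 4 groups carry the transgene and all received a peptide, so no uninjected brain was compared. The her4.1 promoter, from a Notch target gene, drives EGFP in radial glia, which are the neural stem cells of the adult zebrafish brain, and the GFP-negative fraction is everything else that survived dissociation. The labels do not say how many fish made a library or whether the replicates came from separate fish, so the tests measure only the spread between these libraries.

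Retinoic acid is formed from vitamin A in a pair of oxidations. Rdh10 enzymes turn retinol into retinal, and Aldh1a enzymes turn retinal into retinoic acid. Cyp26 enzymes destroy it, Crabp proteins carry it within the cell, and the Rar receptors, paired with Rxr receptors, bind DNA and change transcription when it arrives. In vertebrate embryos, opposed Aldh1a and Cyp26 activity patterns the hindbrain and spinal cord.

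Total counts were 9262838 to 15584769 per library, and 23083 to 25194 genes had at least 1 read. Radial glia markers fitted the sort: their summed level was 38607 to 41153 CPM (counts scaled to library size) in GFP-positive cells after AB42 and 45292 to 48306 CPM after CPP, against 2463 to 2493 CPM in GFP-negative cells after AB42 and 2239 to 2362 CPM after CPP. All 11 radial glia genes tested were higher in GFP-positive cells after either peptide. The purity of the GFP-positive fraction was not tested. Oligodendrocyte lineage genes still summed to 4259 to 6211 CPM in its libraries, and the source of these transcripts is not known. No library was set apart, and no pair of replicates agreed within counting noise.

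Per kilobase of transcript, crabp1a was the most abundant of the 13 genes in GFP-positive cells. It averaged 282 ± 18.8 CPM per kilobase after AB42 and 276 ± 22.6 after CPP (SD, n = 3 each). The gene for the degrading enzyme, cyp26b1, came next, at 117 ± 2.31 CPM per kilobase after AB42 and 110 ± 4.104 after CPP. It was followed by crabp1b, at 44.9 ± 5.42 CPM per kilobase after AB42 and 68.3 ± 6.82 after CPP. All of these levels stand above that of aldh1a2, the synthetic enzyme gene, which averaged 32.5 ± 0.454 CPM per kilobase after AB42 and 37.4 ± 2.46 after CPP. Then followed rdh10b, rdh10a, rarga, raraa and crabp2b, with group means between 5.44 and 34.3 CPM per kilobase. The lowest were aldh1a3, crabp2a, rargb and cyp26a1, the last at 0.22 ± 0.18 CPM per kilobase after AB42 and 0.25 ± 0.083 after CPP. This order depends on the scaling by length: in CPM, cyp26b1 stood above crabp1a, and aldh1a2 above crabp1b, after either peptide.

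In GFP-negative cells the levels lay closer together. There crabp1a averaged 18.8 ± 2.35 CPM per kilobase after AB42 and 23.6 ± 3.02 after CPP, and rarga averaged 15.7 ± 1.89 after AB42 and 15.1 ± 0.903 after CPP. The levels of cyp26b1 were 3.68 ± 0.168 CPM per kilobase after AB42 and 3.35 ± 0.361 after CPP, near those of aldh1a3 and rdh10a. Thus the gene second in GFP-positive cells stood further down the order in GFP-negative cells.

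**Figure D1:**
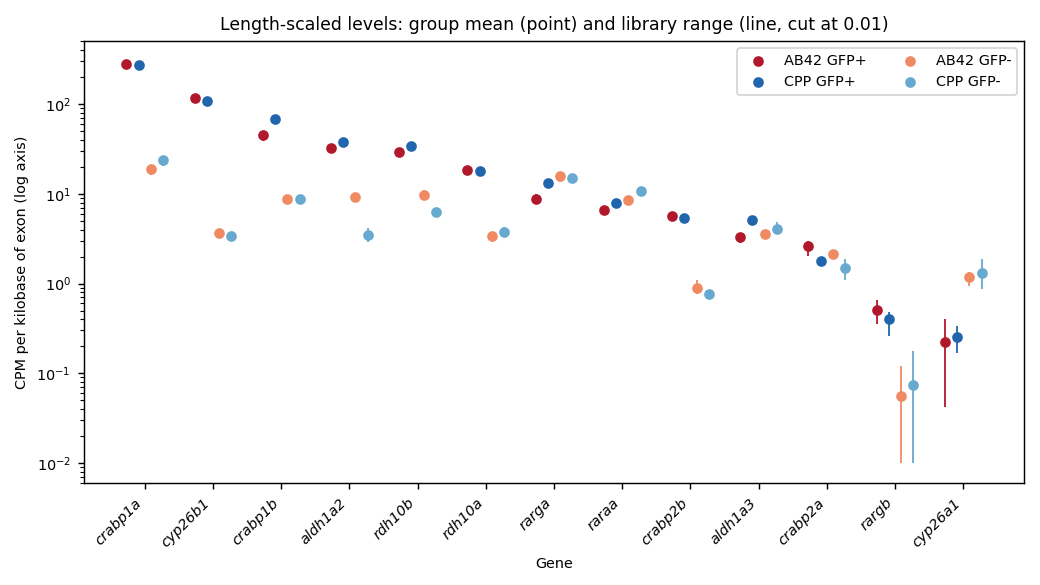
Level of each of the 13 genes in CPM per kilobase (log axis) by group; points are means of 3 libraries and lines their range. In GFP-positive cells crabp1a (276 to 282 on average) and cyp26b1 (110 to 117) stand above the rest, and in GFP-negative cells cyp26b1 lies at 3.35 to 3.68.

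Between the fractions, 10 of the 12 members that passed the filter on low counts were called after AB42 (adjusted p under 0.05 in edgeR's quasi-likelihood fit over 20237 genes), 7 higher and 3 lower in GFP-positive cells. Of all genes tested, 73.7% were called in that comparison, 36.0% higher and 37.7% lower. After CPP 9 of the 12 were called, 7 higher and 2 lower, where 73.0% of all genes were called, 37.1% higher and 35.9% lower. The lower calls after both peptides include cyp26a1, which passed the filter only through its GFP-negative libraries. The median log2 fold change of the 12 was 1.71 after AB42 and 2.37 after CPP, and that of all genes was -0.01 after AB42 and 0.01 after CPP. Scaling by library totals alone moved the median of all genes to -0.26 after AB42 and -0.47 after CPP, and the split of calls over all genes to 5452 higher and 9280 lower after AB42 and 4630 higher and 10673 lower after CPP. The fraction comparisons use the same libraries as the peptide comparisons below, so they are not independent of them. In these bulk libraries a smaller share of cells of a type and less RNA per cell cannot be told apart.

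The paralogs for the first oxidation differed in their response to the peptide. The gene rdh10b (ENSDARG00000012369, chromosome 2, 30198898 to 30202774, plus strand, GRCz10) had 50.3, 50.6 and 57.6 CPM in GFP-positive cells after AB42, against 59.8, 57.9 and 66.2 CPM after CPP. In GFP-negative cells it had 15.9, 16.5 and 19.9 CPM after AB42, against 11.1, 11.6 and 10.9 CPM after CPP. In neither fraction did the peptide groups overlap, but the AB42 libraries were the lower ones in GFP-positive cells and the higher ones in GFP-negative cells. Groups of 3 libraries can stand apart without a called difference, and how often they did so over all genes was not counted. The log2 fold change of AB42 over CPP was -0.22 ± 0.09 (SE) in GFP-positive cells, which was not called, and 0.64 ± 0.11 in GFP-negative cells, a 1.56-fold higher level that was called. GFP-positive cells held 3.03-fold more rdh10b than GFP-negative cells after AB42 and 5.47-fold more after CPP.

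The other copy, rdh10a (ENSDARG00000058730, chromosome 24, 13107061 to 13128424, minus strand), had 46.2, 43.2 and 44.1 CPM in GFP-positive cells after AB42, against 43.2, 46.6 and 41.0 CPM after CPP. GFP-negative cells had 8.32, 8.89 and 6.97 CPM after AB42, against 10.3, 8.26 and 8.36 CPM after CPP. The peptide groups overlapped in both fractions, and the log2 fold changes of 0.03 ± 0.10 in GFP-positive and -0.14 ± 0.13 in GFP-negative cells were not called. Its fraction difference was 5.50-fold after AB42 and 4.90-fold after CPP, higher in GFP-positive cells.

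The gene whose level differed most between the peptides was aldh1a2 (ENSDARG00000053493, chromosome 7, 30055906 to 30096379, minus strand), which encodes the retinal dehydrogenase that makes most retinoic acid in the early zebrafish embryo. In GFP-negative cells it had 25.5, 22.6 and 27.8 CPM after AB42, against 9.16, 11.3 and 8.03 CPM after CPP. In GFP-positive cells it had 89.97, 89.4 and 87.6 CPM after AB42, against 95.7, 103 and 109 CPM after CPP. Every AB42 library lay above every CPP library in GFP-negative cells, and below them in GFP-positive cells. The level in GFP-negative cells was 2.67-fold higher after AB42 (log2 fold change 1.42 ± 0.11), which was called, while the difference of -0.20 ± 0.08 in GFP-positive cells was not. The excess of GFP-positive over GFP-negative cells was 3.52-fold after AB42 and 10.8-fold after CPP.

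The second retinal dehydrogenase, aldh1a3 (ENSDARG00000076933, chromosome 7, 9476226 to 9558124, minus strand), had 8.60, 6.80 and 8.15 CPM in GFP-positive cells after AB42, against 13.2, 12.2 and 11.3 CPM after CPP. GFP-negative cells had 7.46, 9.37 and 8.69 CPM after AB42, against 8.70, 8.67 and 11.6 CPM after CPP. The peptide groups were apart in GFP-positive cells and overlapped in GFP-negative cells. In GFP-positive cells aldh1a3 was called 1.57-fold lower after AB42 (-0.65 ± 0.16), and in GFP-negative cells the difference of -0.20 ± 0.16 was not called. Between the fractions it was called after neither peptide: the log2 difference was -0.12 ± 0.17 after AB42 and 0.33 ± 0.15 after CPP. With library totals alone the value after CPP turned to -0.15, and that after AB42 (-0.38) was called. The value after CPP was also called without replicate 3 of the GFP-positive CPP libraries (0.38) or replicate 3 of the GFP-negative CPP libraries (0.50).

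Of the degrading enzymes, cyp26b1 (ENSDARG00000077121, chromosome 7, 25052585 to 25077440, plus strand) had the widest gap between the fractions among the 12 genes. In GFP-positive cells it had 447, 463 and 448 CPM after AB42, against 411, 442 and 420.2 CPM after CPP. In GFP-negative cells it had 14.6, 14.7 and 13.5 CPM after AB42, against 13.2, 14.2 and 11.5 CPM after CPP. GFP-positive libraries thus lay far above GFP-negative ones, by 31.7-fold after AB42 and 32.9-fold after CPP. The peptide made little difference. The log2 fold change was 0.09 ± 0.06 in GFP-positive cells, where the groups did not overlap, and 0.15 ± 0.09 in GFP-negative cells, where they did. Neither was called, although with library totals alone the GFP-positive value was 0.19 and was called.

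Its relative cyp26a1 (ENSDARG00000033999, chromosome 12, 8916918 to 8920510, minus strand), which in embryos is switched on by retinoic acid itself, ran the other way between the fractions and was scarce. GFP-positive libraries held 5, 1 and 7 reads after AB42 and 8, 4 and 5 reads after CPP. GFP-negative libraries held 35, 29 and 35 reads after AB42 and 39, 24 and 41 reads after CPP. The level was 5.60-fold lower in GFP-positive cells after AB42 and 5.03-fold lower after CPP. The gene passed the filter on low counts only through the GFP-negative libraries, where it was higher, so this fraction difference is a description only. AB42 and CPP libraries overlapped in both fractions, with log2 fold changes of -0.28 ± 0.62 in GFP-positive and -0.13 ± 0.32 in GFP-negative cells. In GFP-positive cells these counts lie close to the floor of 3 reads, which is 0.16 to 0.33 CPM across the libraries, so small changes were not detectable there.

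Among the binding proteins, crabp1a (ENSDARG00000045926, chromosome 25, 6179483 to 6209978, plus strand) had 237, 236 and 265 CPM in GFP-positive cells after AB42, against 237, 223 and 262 CPM after CPP. GFP-negative cells had 17.1, 14.1 and 17.9 CPM after AB42, against 20.6, 17.96 and 23.2 CPM after CPP. The peptide groups overlapped in GFP-positive cells (0.03 ± 0.07). In GFP-negative cells the level was called 1.27-fold lower after AB42 (-0.34 ± 0.10), although the call was lost without replicate 2 of the AB42 libraries (-0.24) or without replicate 3 of the CPP libraries (-0.23). GFP-positive cells had 15.1-fold more crabp1a after AB42 and 11.6-fold more after CPP.

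Its duplicate crabp1b (ENSDARG00000035904, chromosome 7, 48047161 to 48069974, plus strand) had 41.6, 35.0 and 44.6 CPM in GFP-positive cells after AB42, against 57.4, 58.5 and 68.5 CPM after CPP. GFP-negative cells had 8.32, 7.61 and 7.94 CPM after AB42, against 8.25, 7.02 and 8.47 CPM after CPP. The difference lay in the GFP-positive cells, where the groups stood apart and the gene was called 1.53-fold lower after AB42 (-0.61 ± 0.10). In GFP-negative cells the groups overlapped (0.00 ± 0.14). GFP-positive cells held 5.06-fold more crabp1b after AB42 and 7.74-fold more after CPP. So the copies of crabp1, both abundant in GFP-positive cells, had different fold changes there.

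The gene crabp2a (ENSDARG00000073978, chromosome 16, 14493359 to 14506883, minus strand) had 7.60, 7.35 and 5.22 CPM in GFP-positive cells after AB42, against 4.66, 5.12 and 4.097 CPM after CPP. GFP-negative cells had 5.66, 5.05 and 5.80 CPM after AB42, against 4.90, 2.82 and 3.72 CPM after CPP. AB42 libraries were the higher ones in both fractions without overlap, and the log2 fold change was 0.55 ± 0.21 in each. The value in GFP-negative cells (1.46-fold) was called and that in GFP-positive cells was not, and neither call was firm. The call in GFP-negative cells was lost with DESeq2 (0.52), with library totals (0.42), without replicate 1 (0.53) or 3 (0.48) of AB42 and without replicate 2 (0.35) or 3 (0.54) of CPP. The value in GFP-positive cells was called with library totals (0.64), in a fit of the GFP-positive libraries only (0.59), and without replicate 3 of AB42 in that fraction (0.69). It was also called without replicate 3 of the GFP-negative AB42 libraries or without replicate 1 or 2 of the GFP-negative CPP libraries, each at 0.60.

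Its duplicate crabp2b (ENSDARG00000030449, chromosome 19, 9054117 to 9061113, plus strand) had 18.5, 20.2 and 21.1 CPM in GFP-positive cells after AB42, against 18.5, 19.8 and 19.4 CPM after CPP. GFP-negative cells had 2.94, 2.74 and 3.86 CPM after AB42, against 2.90, 2.68 and 2.46 CPM after CPP. It was high in every GFP-positive library, 6.26-fold after AB42 and 7.22-fold after CPP. The log2 fold changes of AB42 over CPP, 0.05 ± 0.13 in GFP-positive and 0.26 ± 0.20 in GFP-negative cells, were not called. By contrast, crabp2a was called between the fractions after neither peptide, with a log2 difference of 0.30 ± 0.20 after AB42 and 0.30 ± 0.22 after CPP. The value after CPP turned to -0.17 with library totals.

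Unlike the dehydrogenase gene aldh1a2, the receptor genes raraa and rarga were not higher in GFP-positive cells. The gene raraa (ENSDARG00000056783, chromosome 12, 10794672 to 11119194, plus strand), for retinoic acid receptor alpha, had 22.6, 22.4 and 26.2 CPM in GFP-positive cells after AB42, against 27.0, 29.3 and 29.1 CPM after CPP. GFP-negative cells had 29.7, 29.9 and 32.1 CPM after AB42, against 41.8, 36.8 and 37.3 CPM after CPP. The AB42 libraries were below the CPP libraries in both fractions. The gene was called 1.26-fold lower in GFP-negative cells (-0.33 ± 0.09), while -0.27 ± 0.10 in GFP-positive cells was not called, though it was without replicate 3 of AB42 (-0.34). It was 1.29-fold lower in GFP-positive than in GFP-negative cells after AB42 and 1.35-fold lower after CPP.

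For retinoic acid receptor gamma, rarga (ENSDARG00000034117, chromosome 23, 35748397 to 35864932, plus strand) had 25.5, 19.8 and 21.1 CPM in GFP-positive cells after AB42, against 32.1, 32.2 and 35.3 CPM after CPP. GFP-negative cells had 43.9, 34.6 and 41.2 CPM after AB42, against 37.0, 41.0 and 37.1 CPM after CPP. The peptide groups were apart in GFP-positive cells, where the level was called 1.5-fold lower (-0.58 ± 0.11), and mixed in GFP-negative cells (0.05 ± 0.10, and -0.08 with library totals). Between the fractions rarga was called 1.80-fold lower in GFP-positive cells after AB42. After CPP the difference of -0.21 ± 0.10 was not called, but it was with DESeq2 (-0.27) and with library totals (-0.70). It was also called without replicate 3 of the GFP-positive CPP libraries (-0.25), replicate 3 of the GFP-negative AB42 libraries (-0.29) or replicate 1 of the GFP-negative CPP libraries (-0.32).

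Its duplicate rargb (ENSDARG00000054003, chromosome 11, 2144182 to 2151541, plus strand) did not pass the filter on low counts. It had 12, 10 and 5 reads in GFP-positive libraries after AB42 and 5, 9 and 8 after CPP, and 1, 3 and 0 reads in GFP-negative libraries after AB42 and 0, 1 and 5 after CPP. These counts are too few for a peptide difference to be detectable.

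**Figure D2:**
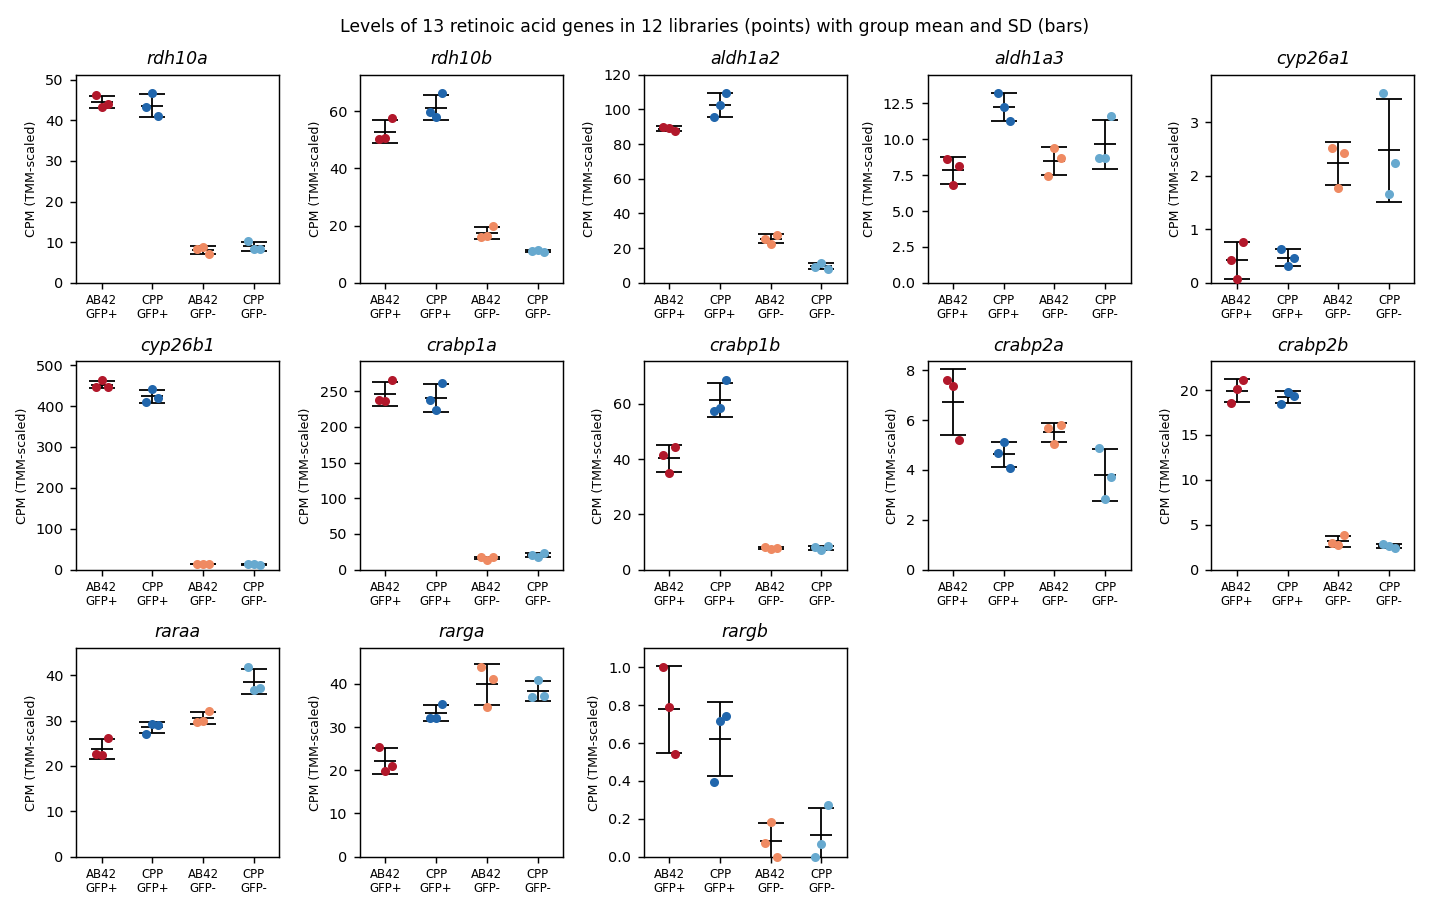
Level of each of the 13 genes in CPM (linear axes from 0, 1 panel per gene) in the 3 libraries of each group, with the mean and SD. GFP-positive libraries of cyp26b1 lie at 411 to 463 CPM after either peptide, and GFP-negative libraries of aldh1a2 lie at 22.6 to 27.8 CPM after AB42 against 8.03 to 11.3 CPM after CPP.

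Counted together, 3 of the 12 members were called in GFP-positive cells when AB42 was set against CPP, 0 higher and 3 lower (aldh1a3, crabp1b and rarga). Over all genes, 18.7% were called in that comparison, 6.21% higher and 12.5% lower. With library totals 5 members were called, 2 higher and 3 lower, and over all genes 2112 were called higher and 1769 lower. Without replicate 3 of the AB42 libraries the count of members was also 5. In GFP-negative cells 5 of the 12 were called, 3 higher (aldh1a2, rdh10b and crabp2a) and 2 lower (crabp1a and raraa), beside 38.2% of all genes, 20.9% higher and 17.3% lower. With library totals the split over all genes was 3191 higher and 5463 lower. Without replicate 3 of the CPP libraries 3 members were called there. The median log2 fold change of the 12 was -0.21 in GFP-positive and 0.03 in GFP-negative cells, where all genes had -0.06 in GFP-positive and -0.01 in GFP-negative cells.

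The AB42 effect itself, as the log2 fold change in GFP-positive cells minus that in GFP-negative cells, was called different for 5 of the 12 members, 1 higher and 4 lower. Of all genes 21.9% were called in this comparison, 5.46% higher and 16.5% lower. The median difference was -0.18 over the 12 members and -0.08 over all genes, which library totals moved to 0.15 for all genes, with 3248 called higher and 2109 lower. The largest difference among the members was that of aldh1a2, -1.62 ± 0.14, followed by rdh10b at -0.85 ± 0.15, rarga at -0.63 ± 0.15 and crabp1b at -0.61 ± 0.17. For crabp1a it was 0.37 ± 0.13. The call for crabp1b was lost with library totals (-0.38) and without replicate 2 of the GFP-negative CPP libraries (-0.46). That for crabp1a was lost without replicate 3 of the GFP-positive AB42 libraries (0.32), replicate 1 (0.37) or 2 (0.32) of the GFP-positive CPP libraries, replicate 2 of the GFP-negative AB42 libraries (0.27) or replicate 3 of the GFP-negative CPP libraries (0.27).

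**Figure D3:**
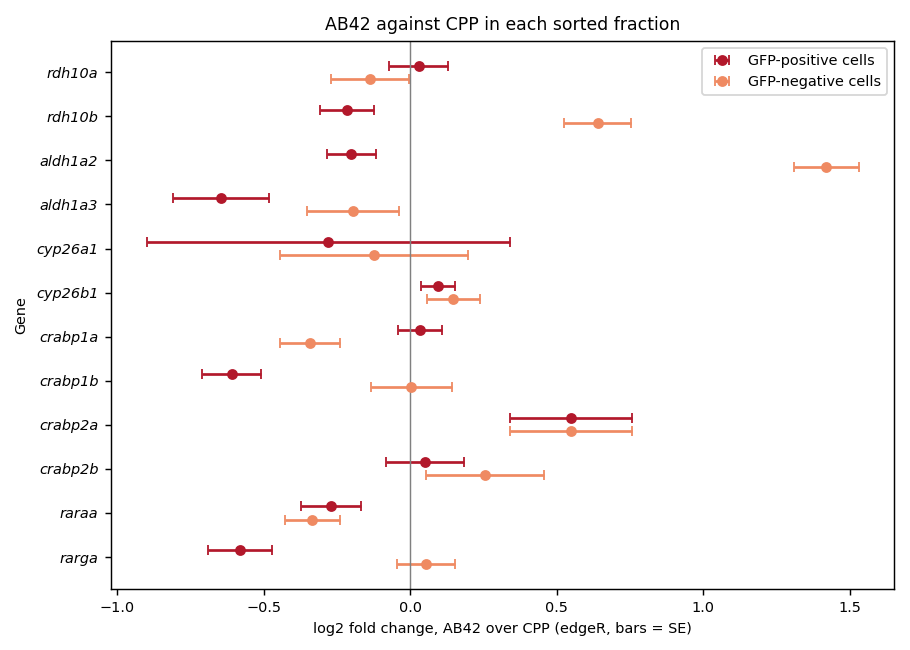
Log2 fold change of AB42 over CPP for the 12 members past the filter (edgeR, bars are SE), in GFP-positive cells (upper point of each pair) and GFP-negative cells (lower point). The points of aldh1a2 lie farthest apart, at -0.20 in GFP-positive and 1.42 in GFP-negative cells.

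Marker transcripts of several cell types differed between the peptides as well. In GFP-negative cells, microglia and macrophage genes summed to 4318 to 4567 CPM after AB42, against 1971 to 2189 CPM after CPP, and 9 of 10 tested were called higher. Oligodendrocyte lineage genes summed to 18016 to 18681 CPM after AB42, against 14134 to 15410 CPM after CPP, with 7 of 9 called higher. Genes of mature neurons summed to 3639 to 3835 CPM after AB42, against 5766 to 5994 CPM after CPP, with 13 of 15 called lower. Blood vessel genes stood at 136 to 141 CPM after AB42, against 78.3 to 81.6 CPM after CPP, with 5 of 7 called higher and pdgfrb at 0 in all libraries. Those of meninges and fibroblasts, cells that make retinoic acid in the mammalian head, stood at 118 to 128 CPM after AB42, against 76.9 to 78.7 CPM after CPP, with 7 of 11 called higher and fbln1 at 0 in all libraries. Epithelial genes summed to 1100 to 1266 CPM after AB42 and 1056 to 1127 CPM after CPP, with 1 of 6 called higher and 2 lower. Erythrocyte genes summed to 41.0 to 53.2 CPM after AB42 and 32.5 to 42.7 CPM after CPP, with 2 of 3 called higher and 1 lower. Radial glia genes summed to 2463 to 2493 CPM after AB42, against 2239 to 2362 CPM after CPP, with 3 of 11 called higher and 1 lower. The part of these shifts in the aldh1a2 and rdh10b differences was not tested.

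In GFP-positive cells the marker sums of other cell types were mostly lower after AB42. Neuron genes summed to 472 to 482 CPM after AB42, against 791 to 799 CPM after CPP, with 11 of 15 called lower. Oligodendrocyte lineage genes summed to 4259 to 4680 CPM after AB42, against 5802 to 6211 CPM after CPP, with 5 of 9 called lower. Microglia and macrophage genes summed to 636 to 702 CPM after AB42, against 1017 to 1159 CPM after CPP, with 3 of 10 called lower. Epithelial genes stood at 23.9 to 35.3 CPM after AB42 against 146 to 168 CPM after CPP, with 5 of 6 called lower and 1 higher. Erythrocyte genes stayed at or below 2.37 CPM, with 1 of 3 called lower. Blood vessel genes, at 139 to 154 CPM after AB42 and 143 to 154 CPM after CPP, had no call. The sum of the meninges list, 608 to 640 CPM after AB42 and 541 to 578 CPM after CPP, came mostly from dcn, with 604 ± 17.7 CPM after AB42 and 537 ± 18.6 CPM after CPP. Of the radial glia genes themselves, 2 of 11 were called higher and 5 lower. The part of these shifts in the aldh1a3, crabp1b and rarga differences was not tested.

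**Figure D4:**
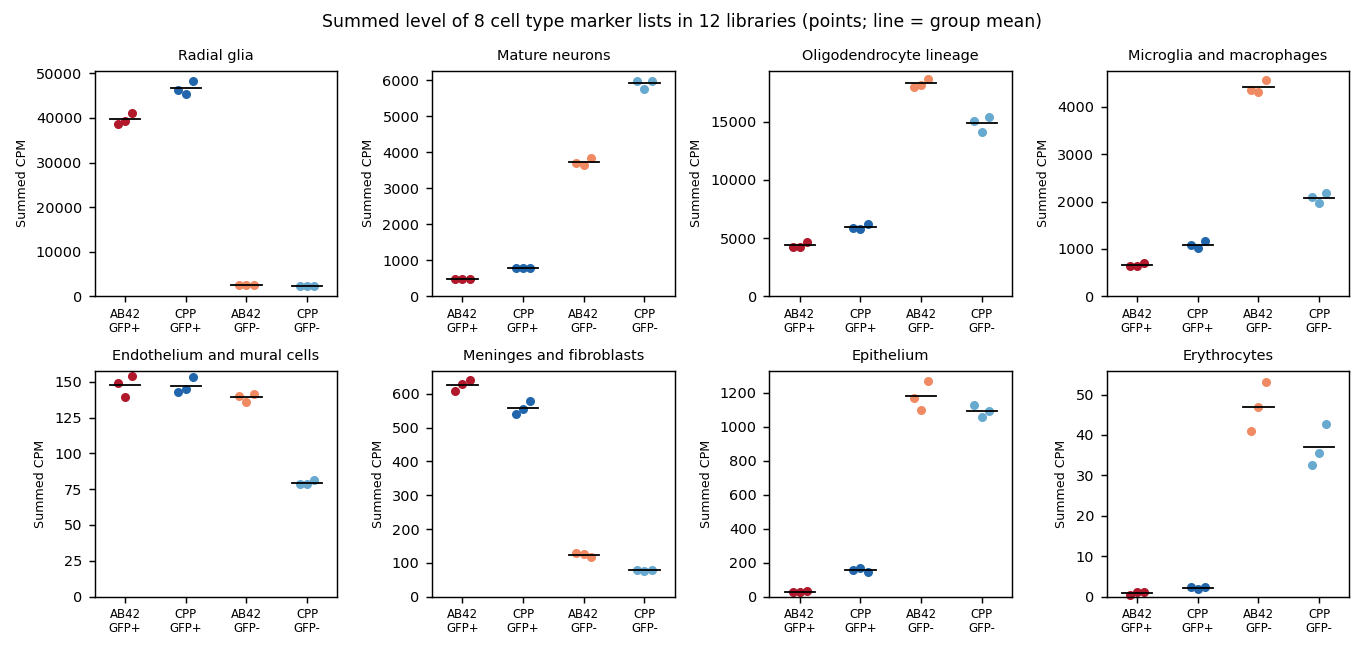
Summed CPM of 8 cell type marker lists in the 12 libraries (points; lines are group means), 1 panel per list. In GFP-negative cells the microglia and macrophage sum is 4318 to 4567 CPM after AB42 against 1971 to 2189 CPM after CPP, and the neuron sum is 3639 to 3835 CPM against 5766 to 5994 CPM.

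Genes with the most similar pattern were sought by the Euclidean distance of log2 CPM, centred on each gene's mean, over the 12 libraries. Nearest to cyp26b1 were itih3a.2 (0.28), slc1a3b (0.34), which is a glutamate transporter gene on the radial glia list, and her15.1 (0.40), a Notch effector gene. Nearest to rdh10b were si:busm1-57f23.1 (0.28), sdr16c5b (0.32) and vamp5 (0.38). For aldh1a2 the nearest were farther off, with slc3a2a, an amino acid transporter subunit gene, at 0.58, mat2al at 0.68 and si:zfos-741a10.4 at 0.70. Those nearest to crabp1a were lemd1 (0.48), slc25a18 (0.50) and gpd1b (0.53), and those nearest to crabp1b were s1pr5a (0.46), gpx4a (0.51) and tspan33a (0.52). The receptor gene raraa, which varied little, had nob1 (0.21), serinc1 (0.24) and pnn (0.24) closest to it, and rarga had snrnp70 (0.43), fmn2a (0.44) and si:dkeyp-73d8.8 (0.47). These distances describe 12 libraries of 4 groups and carry no test.

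The wider retinoid pathway was read from a list of 75 further genes, of which 57 passed the filter on low counts. In GFP-negative cells 26 of the 57 (45.6%, beside 38.2% of all genes) were called after AB42, 13 higher and 13 lower, and their median log2 value was 0.05. They included 8 of 14 genes for retinol and retinal conversion (5 higher, 3 lower), 6 of 17 for vitamin A uptake, transport and storage (2 higher, 4 lower), and 5 of 9 receptor genes (4 higher, 1 lower). As listed, the uptake, transport and storage class also held enzyme genes, those of the rpe65 isomerases and the bco carotenoid oxygenases. Its counts here and below are therefore not of uptake and storage alone. Of the coregulators 3 of 8 fell. Of the genes listed as known targets in zebrafish embryos or mammalian cells, with their other copies, 2 of 8 rose and 2 fell. This list too was put together with earlier results of these data known. The adjusted p-values printed for its genes do not allow for that choice. The part of the marker shifts described above in the peptide differences of these genes, in either fraction, was not tested.

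In GFP-negative cells the smallest p belonged to rxrga, a retinoid X receptor gamma gene. It had 45.3, 45.3 and 44.7 CPM after AB42, against 8.43, 8.33 and 8.91 CPM after CPP, a 5.25-fold rise (log2 fold change 2.39 ± 0.12, edgeR adjusted p = 2.30e-18). The gene stra6l, a relative of the retinol carrier receptor stra6, had 11.04, 12.1 and 13.2 CPM after AB42, against 0.997, 2.34 and 1.91 CPM after CPP, and rose 6.68-fold (2.74 ± 0.23, edgeR adjusted p = 1.68e-12). In neither gene did the AB42 and CPP libraries come near each other. Of the other receptors, rxraa averaged 30.3 ± 0.187 CPM after AB42 and 18.5 ± 1.27 CPM after CPP (1.64-fold higher, edgeR adjusted p = 5.16e-06), and rxrgb rose 2.04-fold (edgeR adjusted p = 0.000175), though its exons overlap those of atf6 on the other strand.

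Conversion enzymes moved in both directions in these cells. The retinol dehydrogenase gene dhrs9 averaged 43.5 ± 0.916 CPM after AB42 and 19.2 ± 0.921 CPM after CPP, a 2.28-fold rise (edgeR adjusted p = 6.21e-13). The rise of aldh8a1 was 2.85-fold (edgeR adjusted p = 3.92e-08) and that of the alcohol dehydrogenase gene adh5 was 1.48-fold (edgeR adjusted p = 5.38e-08). The duplicates of dhrs3, whose product turns retinal back into retinol, parted: dhrs3a had 8.32, 6.51 and 9.25 CPM after AB42, against 3.63, 4.68 and 4.92 CPM after CPP, and rose 1.79-fold (edgeR adjusted p = 0.000138). By contrast, dhrs3b had 3.94, 2.74 and 3.80 CPM after AB42, against 7.61, 5.16 and 6.61 CPM after CPP, and fell 1.85-fold (edgeR adjusted p = 0.00016). The target gene tgm2b, for a transglutaminase, rose 1.94-fold (edgeR adjusted p = 2.73e-05). The retinoid isomerase gene rpe65a fell 2.79-fold (edgeR adjusted p = 3.56e-07), and stra6 fell 1.40-fold (edgeR adjusted p = 0.00116), though its exons overlap those of ISLR on the other strand.

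In GFP-positive cells 18 of the 57 (31.6%, beside 18.7% of all genes) were called after AB42, 10 higher and 8 lower, with a median of -0.04; with library totals 14 were higher and 6 lower. Genes for uptake, transport and storage held 10 of those calls among 17 tested, 6 higher and 4 lower. Only 2 of 14 conversion genes were called in this comparison, both lower, and 1 of 9 receptors, higher. The coregulators had 1 of 8 higher and 1 lower, and the known targets 2 of 8 higher.

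The coactivator gene ncoa2 had 24.5, 21.6 and 26.1 CPM in GFP-positive cells after AB42, against 45.1, 56.5 and 49.4 CPM after CPP, a 2.10-fold fall (log2 fold change -1.07 ± 0.11, edgeR adjusted p = 6.31e-10). The isomerase gene rpe65a had 12.1, 13.8 and 14.8 CPM after AB42, against 30.1, 28.6 and 29.0 CPM after CPP, and fell 2.16-fold (edgeR adjusted p = 3.75e-08). Both fell without overlap. The gene rbp4, for the retinol carrier of plasma, fell 2.25-fold (edgeR adjusted p = 5.53e-05). After AB42 its level in GFP-positive cells was 18.3-fold lower than in GFP-negative cells. The third hydroxylase gene, cyp26c1, averaged 1.20 ± 0.536 CPM after AB42 and 2.93 ± 0.474 CPM after CPP, a 2.52-fold fall (edgeR adjusted p = 0.00257). Reads of cyp26c1 may include those of a gene that overlaps it on the other strand.

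Of the 17 uptake, transport and storage genes tested, 6 rose and 4 fell in the same libraries. The retinol esterifying enzyme gene lratb.2 had 19.4, 20.8 and 24.9 CPM after AB42, against 11.5, 11.5 and 16.8 CPM after CPP, and rose 1.64-fold (edgeR adjusted p = 0.00121). Its relative lrata averaged 2.22 CPM after AB42 and 0.80 CPM after CPP, a 2.77-fold rise (edgeR adjusted p = 0.00519) whose call was lost without replicate 2 of the AB42 libraries (1.25 on the log2 scale). The carotenoid oxygenase gene bco1l rose 3.14-fold (edgeR adjusted p = 0.000496). The binding protein gene rbp2a rose 4.72-fold (edgeR adjusted p = 0.00162) on 41 reads after AB42 and 9 reads after CPP. The targets nr2f1a and znf703 rose 1.25-fold (edgeR adjusted p = 0.000597) and 1.30-fold (edgeR adjusted p = 0.00302). The fall of rdh5, 1.31-fold (edgeR adjusted p = 0.0186), lost its call with library totals (-0.30) and without replicate 1 (-0.38) or 2 (-0.36) of AB42 or replicate 1 (-0.38) or 3 (-0.37) of CPP.

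**Figure D5:**
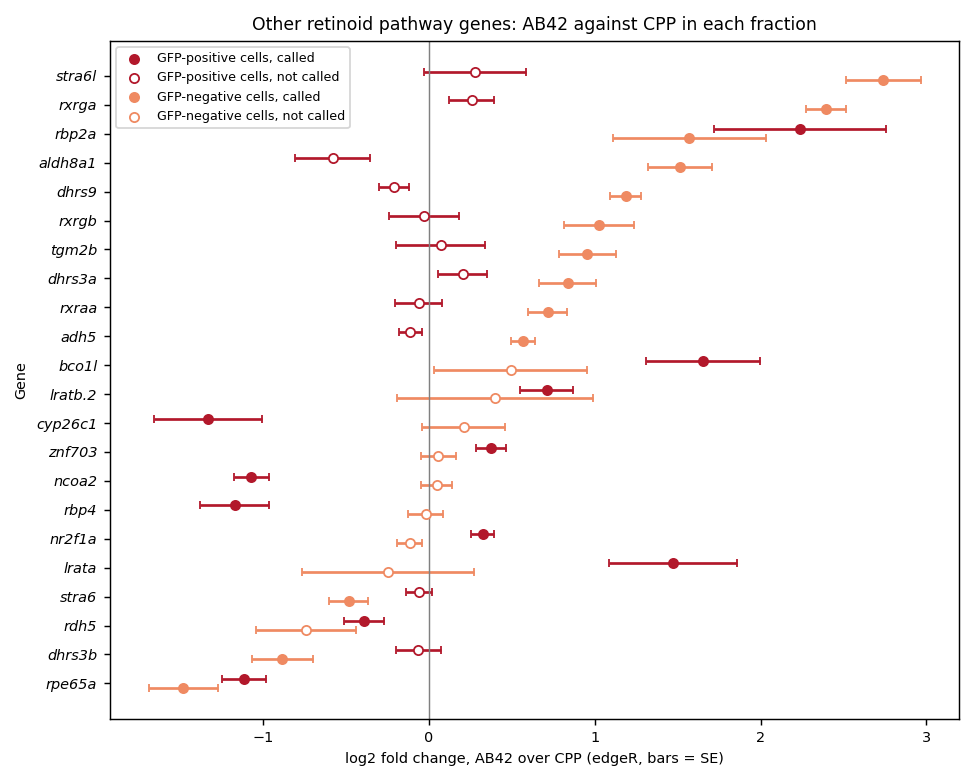
Log2 fold change of AB42 over CPP (edgeR, bars are SE) for named genes of the wider retinoid pathway, in GFP-positive cells (upper point of each pair) and GFP-negative cells (lower point); filled points were called. In GFP-negative cells rxrga (2.39) and stra6l (2.74) lie farthest to the right, and in GFP-positive cells rbp4 (-1.17) and cyp26c1 (-1.33) lie on the left.

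Between the fractions, 42 of the 57 other genes (73.7%, as of all genes 73.7%) were called after AB42, 27 higher and 15 lower in GFP-positive cells. After CPP 43 (75.4%, beside 73.0% of all genes) were called, 29 higher and 14 lower. Both shares lie at or near those of all genes. With library totals the splits were 26 higher and 22 lower after AB42 and 21 higher and 20 lower after CPP. Genes for uptake, transport and storage had 14 of 17 higher and 2 lower after AB42, and 13 higher and 1 lower after CPP, with median log2 differences of 3.12 after AB42 and 2.72 after CPP. The higher calls include lratb.2, which passed the filter on low counts only through its GFP-positive libraries. The esterifying enzyme gene lratb.1 had 251, 247 and 275 CPM in GFP-positive cells after AB42, against 2.58, 2.98 and 2.55 CPM in GFP-negative cells, a 94.5-fold difference (edgeR adjusted p = 6.08e-35), and after CPP the difference was 110-fold (edgeR adjusted p = 1.05e-34).

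Its neighbour in name, lratb.2, was 63.0-fold higher in GFP-positive cells after AB42 and 50.8-fold after CPP. It had only 15 reads after AB42 and 11 after CPP in all GFP-negative libraries. The gene passed the filter on low counts only through the GFP-positive libraries, so these fold differences are a description only. A gene named RPE65 in the table (ENSDARG00000054420) was 78.5-fold higher after AB42 (edgeR adjusted p = 1.77e-30) and 89.0-fold after CPP (edgeR adjusted p = 4.14e-30), and a second gene of that name (ENSDARG00000094752) was 38.0-fold higher after AB42 (edgeR adjusted p = 4.32e-25) and 56.5-fold after CPP (edgeR adjusted p = 2.18e-25). The counting of reads that such copies share is not given in the sources. Exons of the second RPE65 gene also overlap those of si:ch211-198n5.11 on the other strand. The gene nr2f1b, which entered the list only as the other copy of nr2f1a, was 47.2-fold higher after AB42 (edgeR adjusted p = 3.21e-25) and 40.5-fold after CPP (edgeR adjusted p = 2.18e-25). The conversion genes rdh5 and, after CPP, rdh8a stood out too: rdh5 was 30.6-fold higher after AB42 (edgeR adjusted p = 6.65e-23) and 24.1-fold after CPP (edgeR adjusted p = 2.72e-23), and rdh8a was 20.9-fold higher after CPP (edgeR adjusted p = 7.67e-29). The exception among the named genes was rbp4, which had 2.67, 2.06 and 3.37 CPM in GFP-positive cells after AB42, against 46.4, 47.0 and 52.4 CPM in GFP-negative cells, 18.3-fold lower (edgeR adjusted p = 1.96e-23).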

How the data were processed

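The deposited table holds whole-number read counts per gene and library, made by the authors with BWA 0.7.12 and featureCounts on GRCz10 (danRer10), per the submitters' processing notes; how strand and multi-mapped reads were treated is not stated there. The gene length column deposited by the authors was used for CPM per kilobase. Paralog letters that the table's names drop came from RefSeq gene names (GRCz12tu) on the same chromosome.

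Counts were analysed with edgeR 4.0.16 in R 4.3.3 (with limma 3.58.1): genes were kept by filterByExpr (20237 of 31953), scaled by TMM, and tested with the quasi-likelihood F test in a model of 4 group means with 8 residual degrees of freedom. p-values were Benjamini-Hochberg adjusted over all genes tested, and a gene was called at an adjusted p under 0.05. The SE given with a log2 fold change is its absolute value divided by the square root of its F statistic. It is thus worked back from the test and is not a separate estimate of the fit. CPM are TMM-scaled, and the floor of 3 reads covers counting error only. The procedure was tested on simulated data.

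The members and lists were chosen with earlier results of these data known. Other pathway genes were named if called between the peptides, up to 12 per comparison by smallest p, and between the fractions if among the 8 largest differences with at least 5 CPM in the higher group. Of 77 listed symbols 73 were matched, giving 75 genes, and of 68 marker symbols 64, giving 77 genes. Alternatives were DESeq2 1.42.0, RLE size factors, library totals, no filter, the compared groups alone, a replicate block and leaving out each library. No sequences are printed. A gene of the wider list is not reported here by name.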

Additional observations from a re-analysis of the deposited data

Results flagged for a closer look

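For 20 of the genes named in the comparisons of AB42 with CPP, the AB42 effect was called different between the fractions. This was edgeR's test of the difference itself (log2 fold change in GFP-positive cells minus that in GFP-negative cells). Of all genes tested, 21.9% were called in it. The members were chosen with results of these data known, and the other genes were named for a peptide difference in these same libraries. The adjusted p-values below do not allow for either choice. Groups of 3 libraries were not searched for single outlying libraries.

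Among the 13 genes of retinoic acid synthesis, breakdown, binding and reception, the difference was -1.62 for aldh1a2, -0.85 for rdh10b, -0.63 for rarga, -0.61 for crabp1b and 0.37 for crabp1a, given as a description.

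Among the other pathway genes named, receptors had -2.14 for rxrga (edgeR adjusted p = 1.25e-11), -0.78 for rxraa (edgeR adjusted p = 0.00159) and -1.06 for rxrgb (edgeR adjusted p = 0.00839). Conversion enzymes had -1.40 for dhrs9 (edgeR adjusted p = 1.33e-10), -2.09 for aldh8a1 (edgeR adjusted p = 9.37e-07), -0.68 for adh5 (edgeR adjusted p = 2.15e-06), -0.63 for dhrs3a (edgeR adjusted p = 0.0389) and 0.82 for dhrs3b (edgeR adjusted p = 0.00677). Uptake and transport genes had -2.46 for stra6l (edgeR adjusted p = 7.09e-06), -1.15 for rbp4 (edgeR adjusted p = 0.00027) and 0.42 for stra6 (edgeR adjusted p = 0.026). The remaining values were -1.54 for cyp26c1 (edgeR adjusted p = 0.00495), -1.12 for ncoa2 (edgeR adjusted p = 9.94e-08), 0.44 for nr2f1a (edgeR adjusted p = 0.00135) and -0.88 for tgm2b (edgeR adjusted p = 0.0442). Of all 57 other genes tested, named or not, 22 (38.6%, beside 21.9% of all genes) were called different, 8 higher and 14 lower, and 11 higher and 10 lower with library totals.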

How the results depend on the processing

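No called value of a member changed sign under any alternative run, nor did that of another gene in the comparison naming it. The differences of effects printed for the other pathway genes were not followed one by one through these runs. The count of members called between the peptides in GFP-positive cells was 5 (2 higher, 3 lower) with library totals, against 3 in the fit as reported; the cause was not tested. Leaving out each library in turn gave 3 to 5 called members in GFP-positive and 3 to 5 in GFP-negative cells, 10 in every case between the fractions after AB42, 9 to 11 after CPP, and 4 to 5 for the difference of effects. For the other pathway genes these ranges were 12 to 21, 22 to 26, 41 to 43, 40 to 43 and 17 to 21. The 18 correlations between same-numbered libraries (deviations from the group means) ran from -0.03 to 0.14, with a median of 0.05, and the 36 between different numbers from -0.13 to 0.09, with a median of -0.03. In 21 of 36 cases a library was closest to its own number in another group, a hint of pairing. The highest same-number correlations were those between replicate 3 libraries of different groups, from 0.08 to 0.14. What these libraries share was not tested. Since the labels state no pairing, the numbers were not taken as pairing samples. Pairing remains possible, and the fit as reported does not account for it. With a replicate block 4 members were called in GFP-positive and 5 in GFP-negative cells, 10 between the fractions after AB42 and 11 after CPP, and 4356 instead of 3779 of all genes in GFP-positive cells; raraa (-0.27) was then called in GFP-positive cells, and aldh1a3 (0.34) and rarga (-0.21) between the fractions after CPP, and no other member call changed. Depth limits cyp26a1 and rargb.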
